A study of Rattus norvegicus with 34 samples.

Results

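The genes described here are the integrins, cadherins, claudins, laminins and keratins of the rat, the families that hold epithelial cells to their basement membrane and to each other. They were chosen by symbol alone: an integrin alpha or beta chain, a numbered cadherin, claudin or keratin, or a laminin alpha, beta or gamma chain. Of the 14217 genes that the array annotation names with 1 symbol, 84 matched, measured by 113 probe sets. They were 16 integrins, 16 cadherins, 16 claudins, 10 laminins and 23 keratins, and 3 further genes (Itgb1bp1, Itgb1bp2 and Itgb3bp) whose symbols match but whose products bind integrin tails or have other partners; these are described apart.

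The study measured RNA on 34 Affymetrix rat arrays after exposure to monuron, a phenylurea herbicide and rat kidney carcinogen. NRK-52E cells, a rat kidney epithelial line that the labels assign to the proximal tubule, were kept for 6, 24 or 72 h with monuron or with 0.1% DMSO, 3 arrays per group. Male Wistar-derived rats of 7 to 9 weeks and 190 to 240 g received monuron in corn oil (5 ml/kg), 40 mg/kg on day 1 and 400 mg/kg on days 2 and 3, or corn oil alone, and kidney and liver, labelled 72 h, were each measured on 4 arrays per group. The sample labels call the cell exposure monuron, whereas the treatment protocol names chlorothalonil at 1.1 uM for the cells; "monuron" follows the sample labels here, and for the cells the identity of the compound cannot be settled from the descriptions. The labels do not say whether a kidney and a liver array share a rat, and NRK-52E is 1 established line.

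In an epithelium, integrins are paired alpha and beta chains that grip the basement membrane, and laminins are the multi-chain proteins of that membrane to which several of them bind. Cadherins join neighbouring cells at adherens junctions, claudins form the seal and the ion pores of tight junctions, and keratins are the intermediate filaments anchored at desmosomes and hemidesmosomes. In the kidney, claudins and cadherins differ from one nephron segment to the next, and simple epithelia rest on the keratin pair Krt8 and Krt18.

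Values are the authors' log2 intensities after GCRMA normalization, so a difference of 1 is a doubling. Each gene was read from 1 probe set, and a gene was tested where that probe set exceeded its array's median on enough arrays to fill the smallest group (3 in cells, 4 in organs). Levels are compared between samples of the same gene and never between genes, because probe sets differ in affinity. A gene was called changed where the limma test gave a Benjamini-Hochberg adjusted p under 0.05 over every gene tested (9042 in cells, 9542 in kidney and 9361 in liver). Arrays of a group correlated at 0.987 to 0.999 with each other. The DMSO array of 72 h numbered 3 stood farthest from its group, with a median absolute deviation of 0.268 from the others.

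The promoters of 3 members on which the results turn are shown as letters, from 250 bases upstream to the annotated start. They are given 5′ to 3′ in the direction of the gene, from RefSeq on the GRCr8 build. Capitals mark matches, on either strand, to the AP-1 site TGANTCA, the E-box CAGGTG, the GC box GGGCGG or the TATA box TATAAA. Lama3 lies on the plus strand at chr18:3952517-3952766, Krt8 on the minus strand at chr7:135010340-135010589 and Cldn3 on the minus strand at chr12:27346548-27346797.
Lama3: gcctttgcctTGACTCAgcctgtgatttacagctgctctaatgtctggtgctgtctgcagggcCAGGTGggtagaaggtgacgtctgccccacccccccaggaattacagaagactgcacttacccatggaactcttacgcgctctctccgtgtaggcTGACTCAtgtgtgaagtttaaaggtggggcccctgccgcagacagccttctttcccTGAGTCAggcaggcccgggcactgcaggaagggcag
Krt8: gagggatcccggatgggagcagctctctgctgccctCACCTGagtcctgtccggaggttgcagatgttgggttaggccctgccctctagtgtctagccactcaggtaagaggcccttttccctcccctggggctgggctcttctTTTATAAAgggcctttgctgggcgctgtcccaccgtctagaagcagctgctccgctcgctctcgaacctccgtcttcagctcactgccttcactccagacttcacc
Cldn3: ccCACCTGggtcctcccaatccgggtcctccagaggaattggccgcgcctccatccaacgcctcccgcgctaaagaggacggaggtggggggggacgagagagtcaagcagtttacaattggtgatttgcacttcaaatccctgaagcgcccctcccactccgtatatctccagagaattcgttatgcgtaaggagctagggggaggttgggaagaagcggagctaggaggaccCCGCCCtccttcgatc
The Lama3 window held 3 AP-1 matches, beginning at -240, -92 and -36 relative to the start, and an E-box at -187. An AP-1 match occurred in 6.34% of 33469 rat promoters, and 3 or more in 5 of them. Among the 61 members with a promoter in the table, 3 had an AP-1 match, 17 an E-box match (15.9% of all promoters), 24 a GC box match (30.5%) and 9 a TATA match (12.9%). The Krt8 window held an E-box at -214 and 2 overlapping TATA matches at -106 and -104, and the Cldn3 window an E-box at -248 and a GC box at -16. The matches describe the letters only.

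NRK-52E cells expressed a small selection of these families, and the organs many more. In cells, 21 of the 84 genes were tested: 7 of 16 integrins, 2 of 16 cadherins, 2 of 16 claudins, 6 of 10 laminins, 2 of 23 keratins and 2 of the 3 integrin-binding genes. In kidney 45 were tested and in liver 38, with 17 tested in all of these sample types and 30 in none. Of the genes tested in kidney, 27 were not tested in cells, among them 11 claudins.

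**Figure D1:**
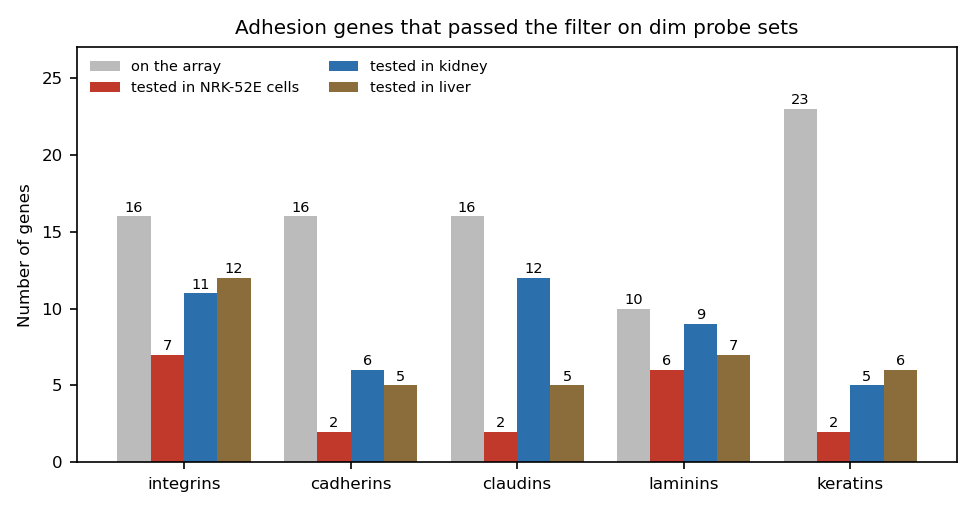
Bars give the number of genes of each family on the array and the number that passed the filter in NRK-52E cells, kidney and liver. Claudins fall from 12 tested in kidney to 2 in cells, while laminins fall only from 9 to 6.

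The cadherins of the cells were Cdh3 (P-cadherin) and Cdh2 (N-cadherin). The probe sets of Cdh1 (E-cadherin), Cdh16 (the kidney-specific cadherin) and Cdh6 stayed below the median of their array on all 18 cell arrays, with Cdh1 between 2.52 and 2.69. Both Cdh1 probe sets were below it on all 18, while in the kidney groups the brighter gave means of 10.85 and 11.06. Cldn1, Cldn2, Cldn3, Cldn4 and Cldn7 were below the median on all 18 cell arrays as well, with Cldn2, the pore-forming claudin of the proximal tubule, between 2.03 and 2.11. Krt18, the usual partner of Krt8, read 2.30 to 2.41 and was below the median on all 18 cell arrays. Krt8 read 11.46 to 14.11 and was above it on all 18. Each was read from 1 probe set, so the levels of the pair cannot be set against each other. Itgb4, the hemidesmosome integrin chain, read 2.13 to 2.20 in cells, and Itgb6, Krt19 and Krt20 were below the median there too. Itgav, the alpha v chain, has no probe set with a single symbol in the annotation used. The Krt18 probe set read between 7.44 and 9.94 in kidney and between 13.13 and 13.47 in liver.

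Most markers of the labelled cell type, the proximal tubule, were dim in the line. Of the 8 genes listed, Lrp2, Cubn, Slc34a1, Slc5a2, Slc22a6 and Slc22a8 lay below the median on all 18 cell arrays, Ggt1 was above it on 16 and Aqp1 on 2. Of 6 mesenchymal genes, Col1a1, Col3a1 and Acta2 were above it on all 18, Des on 7, Pdgfrb on 1 and Dcn on 0. In kidney all 8 tubule markers were above the median on every array, and in liver all 8 hepatocyte markers were.

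At 6 h, keratin Krt10 was lower with monuron and laminin chains Lamb1 and Lamc1 were slightly higher. Of the 21 members, 4 were called, against 6.31% of all genes tested. Krt10, a keratin best known from upper epidermis, read 6.20, 6.07 and 6.01 with monuron and 7.84, 7.06 and 7.03 with DMSO. The groups did not overlap, and the difference was -1.22 ± 0.24 (SE; limma, adjusted p = 0.0085). Lamb1, a beta chain of widespread laminins, read 12.88, 12.81 and 12.74 against 12.50, 12.49 and 12.35. Every monuron array was above every DMSO array, with a difference of 0.36 ± 0.09 (adjusted p = 0.0266). Lamc1, the gamma chain most laminins share, differed by 0.32 ± 0.09 (adjusted p = 0.0392).

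The claudin Cldn11, known from myelin and Sertoli cells, was also called at 6 h, at 0.70 ± 0.20 (adjusted p = 0.0478). Its values of 4.05, 4.25 and 4.06 against 3.48, 3.36 and 3.44 lay at or below the array medians in 4 of the 6 arrays, and with values floored at the median the difference was 0.13 (adjusted p = 0.7197). Same-numbered arrays of 6 h correlated, though only 4 of 6 did so best with their own number, so the pairing is uncertain. With the replicate number as a block, 6 members were called, against 11.4% of all genes. It added Lama5 (0.33, adjusted p = 0.0450) and Lamb2 (0.41, adjusted p = 0.0478), the chains of the laminins of mature kidney basement membrane. The Lamb1 call was lost without each array of 6 h (adjusted p 0.0553 to 0.1037), the Lamc1 call without 11 of the 18 arrays (up to 0.1863) and the Cldn11 call without 13 (up to 0.1784). The Krt10 call was kept without each of them.

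At 24 h, 1 of the 21 members was called, against 13.6% of all genes tested. This was Itgb1, the beta chain shared by most integrins of the cells. It read 14.05, 14.02 and 14.10 with monuron and 13.76, 13.82 and 13.72 with DMSO. The groups did not overlap, and the difference was 0.29 ± 0.08 (limma, adjusted p = 0.0326), lost without each array of 24 h (adjusted p up to 0.1040). It was lost as well with no filter (0.0602), with centring on array medians (0.0756), with the mean over probe sets (0.0823) and without the variance trend (0.0587). A fit on the 24 h arrays alone called 7 members, against 35.8% of all genes, among them Lamb3 (0.76, adjusted p = 2.80e-04) and Lama3 (0.83, adjusted p = 0.0026); in that fit the spread of the other times does not enter.

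At 72 h the integrins, cadherins and keratins that were called were all lower with monuron, and the laminin chain Lama3 was higher. Of the 21 members, 12 were called, 3 higher and 9 lower, against 61.6% of all genes tested (30.7% higher and 30.9% lower). By family, 4 of 7 integrins, 1 of 2 cadherins and 2 of 2 keratins were lower, 1 of 2 claudins was higher, and of 6 laminins 2 were higher and 1 lower. Of the 2 higher laminins, the Lamb3 call rested on a single DMSO array. The median difference over the 21 members was -0.27, against 0.01 over all genes. The share of members called lies near that of all genes, so it does not set them apart.

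**Figure D2:**
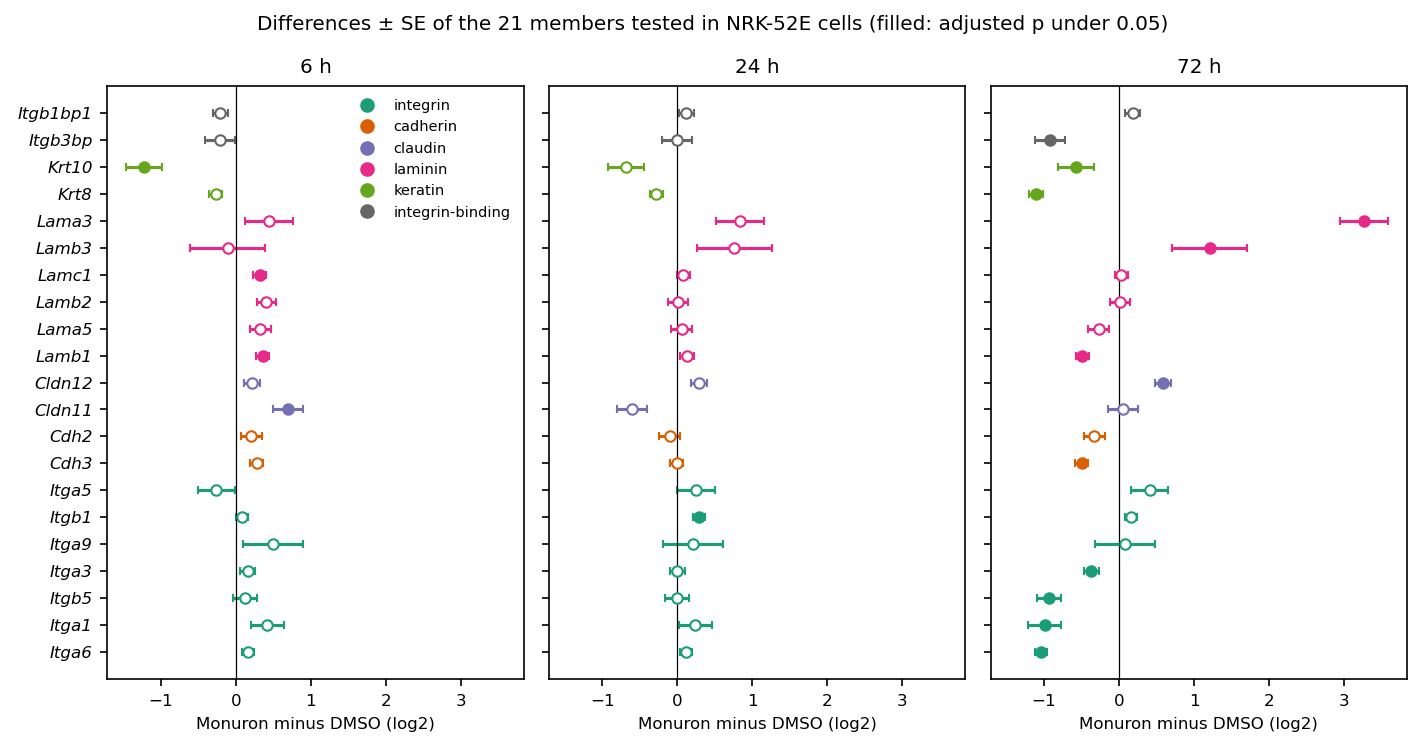
Points give the monuron minus DMSO difference (log2) of each of the 21 tested members at 6, 24 and 72 h, with bars of 1 SE; filled points had an adjusted p under 0.05 and colours give the family. Few points are filled at 6 and 24 h, and at 72 h Lama3 stands at 3.27 while Krt8 and Itga6 stand near -1.

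Lama3, the alpha chain of the laminin that anchors hemidesmosomes, showed the widest difference of the 21 members tested (probe set 1370538_at). At 72 h it read 7.84, 8.17 and 8.83 with monuron and 4.04, 5.36 and 5.64 with DMSO. The groups were far apart, at 3.27 ± 0.32 (9.64-fold; limma, adjusted p = 6.69e-07), and the DMSO array at 4.04 lay below its array's median. In DMSO cells Lama3 fell between 24 and 72 h, from a mean of 7.44 ± 0.27 (SD, n = 3) to 5.01 ± 0.85, whereas monuron cells stood at 8.27 ± 0.13 and 8.28 ± 0.50. The fall in DMSO cells was -2.43 ± 0.32 (adjusted p = 5.26e-05) and the change in monuron cells 0.01 ± 0.32 (adjusted p = 0.9827). The treatment difference was larger at 72 h than at 24 h by 2.44 (adjusted p = 7.09e-04). Its promoter is the one with 3 AP-1 matches shown above.

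Lamb3, the beta chain of the same laminin, read 9.22, 9.48 and 9.39 with monuron at 72 h and 6.22, 8.81 and 9.43 with DMSO. The groups overlapped, and the spread of the DMSO arrays (SD 1.70) was wide against 0.13 in monuron. The difference was 1.21 ± 0.50 (limma, adjusted p = 0.0453). It rested on the DMSO array at 6.22, without which it was 0.25 (adjusted p = 0.2173). The call was lost without 16 of the 18 arrays, and without DMSO array 3 it was 1.85 (adjusted p = 0.0012).

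The laminin chain Lamb1, higher with monuron at 6 h, was lower at 72 h. It read 12.80, 12.70 and 12.40 with monuron and 13.18, 13.23 and 12.95 with DMSO, without overlap. The difference was -0.49 ± 0.09 (limma, adjusted p = 2.36e-04). Lamb2 (0.01) and Lamc1 (0.03) showed small differences at 72 h (adjusted p = 0.9692 and 0.7885), and Lama5, at -0.27, missed the threshold (adjusted p = 0.0981).

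The integrin Itga6, a laminin receptor chain, was lower on every monuron array of 72 h (probe set 1383240_at). It read 10.85, 10.76 and 10.64 with monuron and 11.91, 11.64 and 11.82 with DMSO. The difference was -1.04 ± 0.08, a 2.06-fold lower level (limma, adjusted p = 7.61e-08). DMSO cells held Itga6 at means of 11.74, 11.79 and 11.79 over the time course, and monuron cells stood at 11.90 until 24 h before reaching 10.75. Other probe sets of the gene gave -1.40 ± 0.71 and -0.35 ± 0.70, and with the mean over its probe sets the call was lost (adjusted p = 0.0997).

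Itga3, another laminin receptor chain, read 9.55, 9.80 and 9.70 with monuron and 9.99, 10.16 and 10.02 with DMSO at 72 h. The groups did not overlap, at -0.37 ± 0.10 (limma, adjusted p = 0.0044). Itga1, a collagen receptor chain, read 11.33, 11.06 and 10.40 against 12.02, 12.21 and 11.53. Here too every monuron array was lower, at -0.99 ± 0.22 (adjusted p = 0.0012). Itgb5, which pairs with the alpha v chain, read 10.38, 10.47 and 9.98 against 10.79, 11.33 and 11.52, a difference of -0.93 ± 0.16 (adjusted p = 1.09e-04). A dimmer probe set of Itgb5 gave -3.36 ± 0.53, in the same direction. Itgb1 (0.16), Itga5 (0.41), the fibronectin receptor chain, and Itga9 (0.08) were not called at 72 h. For Itgb1 the call depended on the setting. Its other probe set, above the median on all 18 cell arrays, gave 0.37 ± 0.11. With the mean over probe sets Itgb1 was called higher (0.27, limma, adjusted p = 0.0152), as it was with centring on array medians (0.25, adjusted p = 0.0393). The values of Itgb1, Itga5 and Itga9 also depended on single arrays. Without DMSO array 3, Itgb1 was 0.27 (limma, adjusted p = 0.0042) and Itga5 0.71 (0.0094). Itga9 turned to -0.64 without DMSO array 1 (adjusted p = 0.0123), on which it read 3.93 against 6.16 and 6.04 on the other DMSO arrays.

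Among cadherins, Cdh3 read 10.68, 10.87 and 10.82 with monuron and 11.40, 11.26 and 11.21 with DMSO at 72 h. The groups were separate by more than either group's spread, at -0.50 ± 0.09 (limma, adjusted p = 1.84e-04). Cdh2 differed by -0.33 ± 0.14 with overlapping groups (adjusted p = 0.0505), and its dimmer probe set gave -0.92 ± 0.17. It was called without DMSO array 2 (-0.54, adjusted p = 6.59e-04) and with the mean over probe sets (-0.41, adjusted p = 0.0019).

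Keratin Krt8, the filament protein of simple epithelia, fell in the course of culture and lay lower still with monuron (probe set 1371530_at). At 72 h it read 11.72, 11.85 and 11.46 with monuron and 12.78, 12.65 and 12.93 with DMSO. No array overlapped, and the difference was -1.11 ± 0.09, a 2.16-fold lower level (limma, adjusted p = 1.77e-07). At 6 and 24 h the differences were -0.27 (adjusted p = 0.0925) and -0.28 (adjusted p = 0.0517), with each monuron array again below each DMSO array. Krt10 read 4.19, 4.53 and 4.34 against 5.02, 5.02 and 4.77 at 72 h, a difference of -0.58 ± 0.24 (adjusted p = 0.0418). That call was lost without 7 of the 18 arrays (adjusted p up to 0.1183).

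Of the claudins, Cldn12, a claudin linked to paracellular calcium passage, read 9.38, 9.45 and 9.72 with monuron and 8.88, 8.77 and 9.12 with DMSO at 72 h. Each monuron array was higher, at 0.59 ± 0.11 (limma, adjusted p = 2.55e-04). Cldn11 was below the median on all 6 arrays of 72 h.

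Itgb3bp, a centromere protein despite its symbol, was lower at 72 h by 0.92 on the log2 scale (difference -0.92 ± 0.20; limma, adjusted p = 9.77e-04). Itgb1bp1, which binds the Itgb1 tail, differed by 0.18 (adjusted p = 0.1228).

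With the replicate number as a block, 14 members were called at 72 h, against 64.2% of all genes. The block added Lama5 (-0.27, limma, adjusted p = 0.0235) and Itga5 (0.41, adjusted p = 0.0397). Only 4 of the 6 arrays of 72 h correlated best with their own number, so this pairing is uncertain. The calls of Itga6, Krt8, Lama3, Lamb1, Itgb5, Cdh3, Itga1, Itga3, Cldn12 and Itgb3bp were kept when any 1 of the 18 cell arrays was left out. In the same comparison the mesenchymal markers Acta2 (1.63) and Des (0.91) were higher and Col1a1 (-1.14) and Col3a1 (-1.11) lower, with a summed list of 41.76 to 42.14 in monuron and 40.09 to 42.52 in DMSO cells. Of markers of other cell types that could be tested, Wt1 and Synpo of the podocyte list (median -1.31) and Tek (-1.95) of the endothelial list were lower, and Cd68 (2.30) of the leukocyte list was higher. The summed lists read 16.51 to 18.23 with monuron against 19.59 to 20.32 with DMSO for podocytes, 13.27 to 13.66 against 14.16 to 16.54 for endothelium and 20.23 to 21.05 against 17.55 to 18.42 for leukocytes. The defining markers Nphs1 and Podxl, Pecam1 and Kdr, and Ptprc lay below the median on all 18 cell arrays. Their part in the differences above was not tested.

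**Figure D3:**
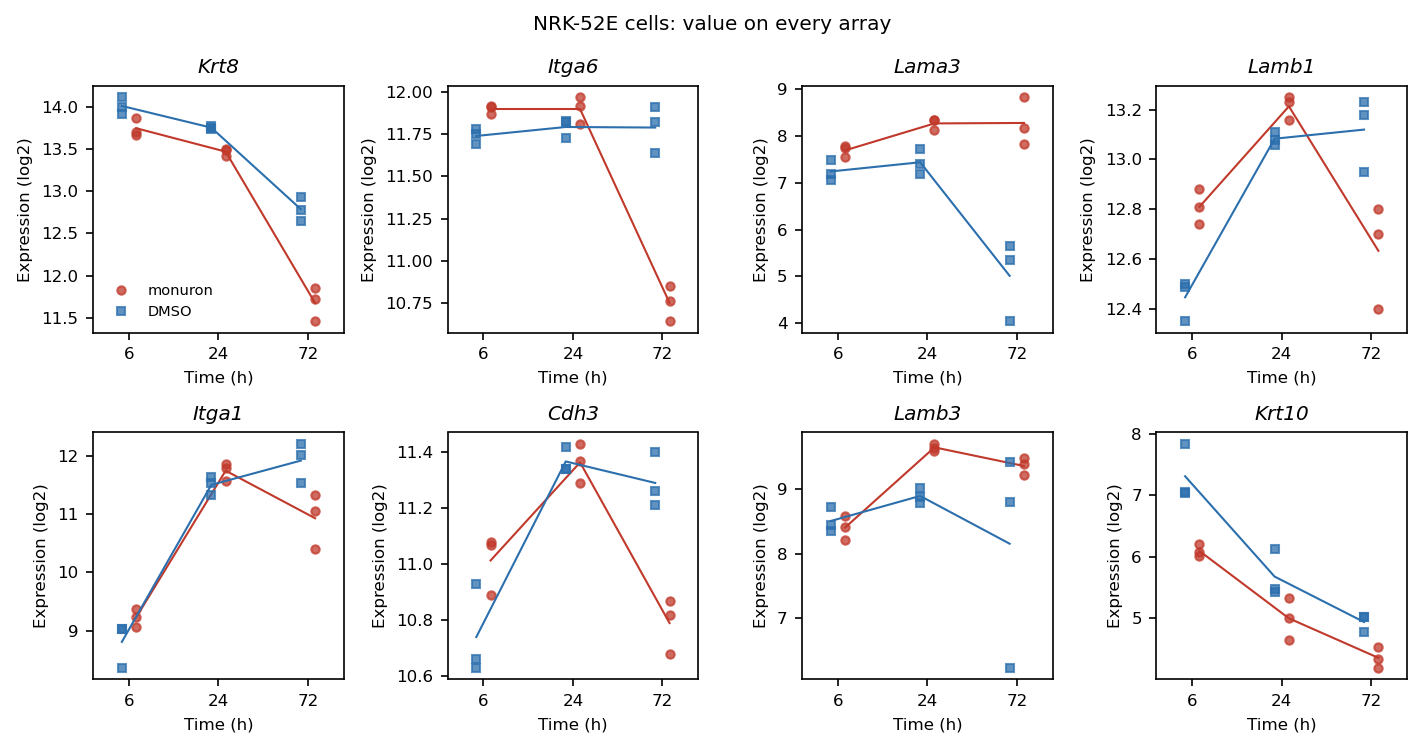
Each point is the log2 value on 1 array at 6, 24 or 72 h, circles for monuron and squares for DMSO, and lines join the group means. Itga6, Lamb1, Itga1 and Cdh3 part between 24 and 72 h through lower monuron values, whereas Lama3 parts through lower DMSO values.

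The treatment difference changed between times for 9 members from 24 to 72 h, against 37.9% of all genes, 1 toward higher (18.3%) and 8 toward lower values with monuron (19.6%). Besides Lama3 these were Itga6 (-1.15), Itga1 (-1.23), Itgb5 (-0.92), Krt8 (-0.83), Lamb1 (-0.62), Cdh3 (-0.50), Itga3 (-0.37) and Itgb3bp (-0.93). The adjusted p values of limma ran from 9.91e-06 for Itga6 to 0.0470 for Itga3, and the Itga3 change was not called without 14 of the 18 arrays, up to 0.1263. The Itga6 change was not called with the mean over probe sets (adjusted p = 0.2325), nor the Itgb3bp change without monuron array 3 of 72 h (0.0545). From 6 to 24 h the difference changed for 1 member, Cldn11 (-1.30, adjusted p = 0.0368), against 1.22% of all genes. That change was not called without 10 of the 18 arrays (up to 0.1023), with floored values (-0.73, 0.1357) or with centring (0.0705).

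Many of these genes also changed with time in culture. Between 6 and 24 h in DMSO cells, 14 of the 21 members were called, 10 higher and 4 lower, against 53.1% of all genes (24.8% higher and 28.3% lower). Itga1 rose most, from 8.36, 9.03 and 9.03 to 11.54, 11.33 and 11.64. No array overlapped between these times, and the difference was 2.70 ± 0.22 (limma, adjusted p = 1.21e-07). The laminin chains Lamb2 (1.33), Lama5 (1.26), Lamc1 (0.80) and Lamb1 (0.63) rose as well, with adjusted p from 5.56e-07 to 2.48e-05. Cdh3 (0.63), Itga3 (0.57), Itgb5 (0.74) and Cdh2 (0.36) rose, and Krt10 (-1.63), Krt8 (-0.26), Cldn12 (-0.39) and Itgb1bp1 (-0.28) fell. Cldn11, counted among the 10 higher, lay below the median on all 3 DMSO arrays of 6 h and passed the filter mainly through the 24 h arrays; its 1.66 was 1.08 with floored values. Itgb1bp1 had the opposite sign with the mean over its probe sets, and Lama5 then missed the threshold (adjusted p = 0.0529). The Cdh2 call was lost without each of the 6 arrays (adjusted p 0.0603 to 0.0918), that of Krt8 without DMSO array 1 or 2 of either time (0.0543 to 0.1112), and that of Itgb1bp1 without array 1 of 6 h (0.1033) or array 3 of 24 h (0.0543).

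Monuron cells took a similar course between 6 and 24 h, with 13 members called, 10 higher and 3 lower, against 57.5% of all genes (27.3% higher and 30.2% lower). Itga1 again led, at 2.52 ± 0.22 (limma, adjusted p = 1.50e-07), and the laminin chains Lama5 (0.98) and Lamb2 (0.94) rose again. Itgb1 (0.39, adjusted p = 8.62e-04) and Lamb3 (1.25, adjusted p = 0.0418) were called here, where in DMSO cells the values were 0.19 (adjusted p = 0.0652) and 0.39 (adjusted p = 0.5327). The change of the treatment difference was not called by limma for Itgb1 (0.20, adjusted p = 0.3884) or Lamb3 (0.86, adjusted p = 0.5399). For Lamb3 it was called with only the arrays of the groups compared (adjusted p = 0.0038). With the mean over its probe sets, Itgb1 was called in DMSO cells too (0.38, adjusted p = 0.0016). The monuron call of Lamb3 was lost without 13 of the 18 arrays, with adjusted p up to 0.1076. Krt8 (-0.27) was not called without monuron array 1 of 6 h (0.0909) or of 24 h (0.0612), nor Cldn12 (-0.32) without array 1 or 2 of 6 h or 2 or 3 of 24 h (0.0544 to 0.0841).

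Between 24 and 72 h in DMSO cells, 9 members were called, 2 higher and 7 lower, against 27.9% of all genes (11.6% higher and 16.4% lower). Krt8 (-0.96, adjusted p = 3.86e-06), Lama3 (-2.43), Itga9 (-1.82), Cdh2 (-0.61), Itga3 (-0.35) and Krt10 (-0.75) were lower, and Cldn12 (0.48) and Lama5 (0.45) higher. Without DMSO array 1 of 72 h, Itga9 was -1.10 (limma, adjusted p = 9.46e-04). Another Cdh2 probe set, above the median on all 18 cell arrays, gave only -0.09 ± 0.17. With the mean over probe sets the Cdh2 call was lost (adjusted p = 0.0843). Cldn11, the other lower member, lay below the median on all 3 DMSO arrays of 72 h, and its -1.79 was -0.96 with floored values. A fit on these 6 arrays alone called 3 of the 9, Krt8, Cldn11 and Lama3, against 9.92% of all genes. Lama5 was lost without DMSO array 1 or 3 of 24 h or 2 of 72 h (up to 0.1258), Krt10 without array 2 of 24 h (0.1454) or 3 of 72 h (0.0556), and Itga3 without array 2 of 24 h (0.0591). In monuron cells 13 were called, 1 higher and 12 lower, against 60.7% (28.6% higher and 32.0% lower). Krt8 fell by 1.79 on the log2 scale (difference -1.79 ± 0.09; limma, adjusted p = 1.66e-09), Itga6 by 1.15 and Itgb5 by 1.05, and Cldn12 rose by 0.79. The monuron call of Krt10 (-0.64) was lost without array 1 or 2 of 24 h or 1 or 3 of 72 h (0.0585 to 0.1262). Each time comparison shares its arrays with the treatment comparisons, so these values are not separate evidence for them.

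The filter left out a few members that nonetheless differed in dim signals. Itga8, a nephronectin receptor chain of kidney mesenchyme, read 3.87, 4.12 and 3.33 with monuron at 6 h and 2.48, 2.53 and 2.50 with DMSO. It lay below its array's median on all but 1 of the 18 cell arrays. The other Itga8 probe set, below the median on every cell array, showed no such difference at 6 h (-0.02 ± 0.09). Itga2b read 4.44, 3.07 and 3.44 with monuron at 24 h and 2.37, 2.63 and 2.36 with DMSO. Krt7, a keratin of collecting duct and bile duct, lay between 2.25 and 4.98 over the 18 cell arrays.

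Other genes of cell adhesion, 80 in lists of junction, focal adhesion, hemidesmosome, basement membrane and epithelial regulator genes, were read beside the families. Of 51 tested in cells, 3 were called at 6 h, 3 at 24 h and 26 at 72 h, 9 of the last higher and 17 lower. Of all genes 6.31%, 13.6% and 61.6% were called at these times, so these counts do not set the lists apart. The largest declines at 72 h were those of Ppl, the desmosomal plakin periplakin (-3.96 ± 0.43; limma, adjusted p = 1.89e-06), and Agrn, the basement membrane proteoglycan agrin (-1.54 ± 0.22). The other desmosome genes tested, the plakophilins Pkp2 (0.92) and Pkp4 (0.56), were higher. Focal adhesion genes went both ways, with Lims2 at 2.69 ± 0.29 and Pxn (paxillin) at -0.72 ± 0.08. Of 3 hemidesmosome genes tested, Plec (-0.78) and Dst (-0.30) were lower, and of 8 adherens junction genes Ctnnb1 (-0.90) and Nectin2 (-0.63) were lower and Ctnna1 (0.22) and Afdn (0.33) higher. Among tight junction genes F11r (-1.14), Cgn (-0.89) and Pard6b (-0.51) were lower. Among 6 regulators tested, Klf5 was lower (-1.22) and Twist1 (1.08) and Zeb1 (0.52), repressors of epithelial genes, higher. Between 6 and 24 h in DMSO cells 26 of the 51 were higher and 1 lower, against 24.8% and 28.3% of all genes.

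In the kidneys of monuron rats, Cldn3 and Krt8 were lower and Cdh2 and Itga6 higher. Of the 45 members tested, 4 were called, 2 higher and 2 lower, against 10.2% of all genes (3.87% higher and 6.34% lower). The median difference over the 45 was -0.03, against -0.08 over all genes. Whole kidney was measured, so fewer cells of a type and less RNA per cell cannot be told apart.

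Cldn3, a sealing claudin of distal segments, read 6.79, 7.21, 6.92 and 7.53 in monuron kidneys and 7.81, 8.34, 8.17 and 8.40 in controls (probe set 1368115_at). Every monuron kidney was below every control, and the difference was -1.07 ± 0.18, a 2.10-fold lower level (limma, adjusted p = 0.0091). Krt8 read 10.97, 10.77, 10.59 and 10.97 against 11.44, 11.21, 11.67 and 11.44. These groups did not overlap either, at -0.61 ± 0.11 (adjusted p = 0.0125). The Cldn3 and Krt8 calls were kept without each of the 8 arrays.

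Cdh2, the cadherin of the rodent proximal tubule, read 9.53, 9.24, 9.70 and 9.61 in monuron kidneys and 9.26, 8.79, 8.81 and 8.65 in controls. The groups overlapped at 1 control, with a difference of 0.64 ± 0.14 (limma, adjusted p = 0.0248). Itga6 read 12.75, 12.55, 12.63 and 12.40 against 12.33, 12.24, 12.18 and 12.26. All monuron values were higher, at 0.33 ± 0.08 (adjusted p = 0.0272). Another Itga6 probe set, above the median on all 8 arrays, gave 1.26 ± 0.46. A dimmer one, above the median on only 4 arrays, gave 1.67 ± 0.46. The Cdh2 call was lost without monuron array 1 or 3 or control array 2, 3 or 4 (adjusted p 0.0548 to 0.0791). The Itga6 call was lost without monuron array 1, 2 or 3 or control array 2, 3 or 4 (0.0514 to 0.0883).

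The summed log2 level of the 8 proximal tubule markers was 107.18 to 108.11 in monuron kidneys and 105.12 to 105.61 in controls, without overlap. Cubn (1.01) and Lrp2 (0.63), the endocytic receptors of the proximal tubule, were called higher. The distal nephron list read 74.70 to 76.32 against 74.27 to 76.53, the leukocyte list 47.00 to 48.20 against 45.78 to 47.39, and the hepatocyte list 45.42 to 59.19 against 41.89 to 51.50. Their part in the kidney results was not tested.

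**Figure D4:**
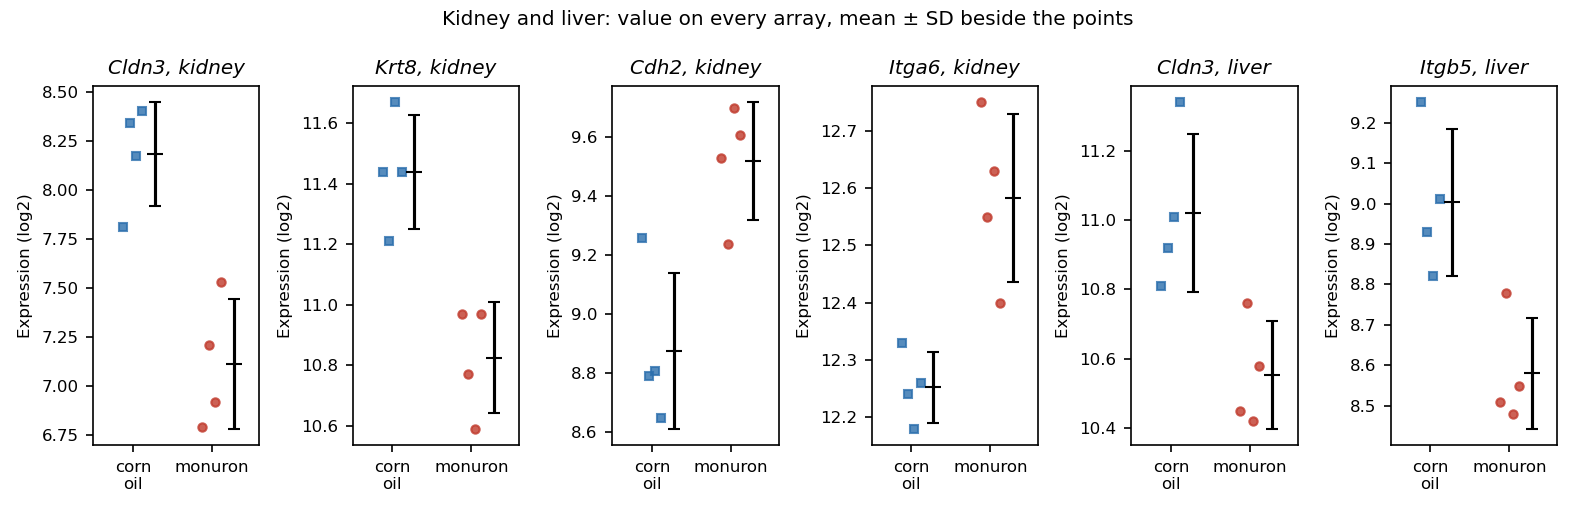
Points give the log2 value on each of 4 control (squares) and 4 monuron (circles) arrays, with the mean and SD beside them. Cldn3 and Krt8 are lower in every monuron kidney, Cdh2 overlaps at 1 control kidney, and the liver values of Cldn3 and Itgb5 are lower without passing the threshold.

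The other kidney claudins were not called. Of all 12 claudins tested, 10 differences lay below 0, with a median of -0.19, and the median over all genes lay below 0 as well. Cldn7 read 5.83, 5.52, 5.44 and 5.80 against 5.85, 5.87, 6.99 and 7.18, a difference of -0.83 ± 0.31 that was not called (limma, adjusted p = 0.1127). Cldn6 differed by -1.37 ± 0.41 (adjusted p = 0.0628), with 3 of 4 monuron arrays below their median. The segment claudins Cldn2 (0.10), Cldn10 (0.16), Cldn8 (-0.02), Cldn16 (-0.15) and Cldn19 (-0.23) were not called, nor were Cldn1 (-0.37) and Cldn4 (-0.26).

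The kidney-specific cadherin Cdh16 differed by -0.03, Cdh6 by -0.31 and Cdh1 by -0.22 ± 0.14 (limma, adjusted p = 0.3457). Among keratins, Krt18 differed by -0.77 ± 0.38 (adjusted p = 0.2140), Krt19 by -0.31 and Krt7 by 0.09. Among laminins, Lama5, the alpha chain of mature tubular and glomerular basement membrane, read 8.04, 7.72, 7.43 and 7.68 against 8.17, 7.99, 8.40 and 8.57. These groups overlapped and the difference of -0.57 ± 0.16 was just outside the threshold (adjusted p = 0.0520). Lamb1 (-0.21), Lamb2 (-0.32) and Lamc1 (-0.11) were not called. Of 11 integrins 8 differences lay above 0, where the median over all genes lay below 0, and only Itga6 was called. Itga9 differed by 0.60 ± 0.17 (adjusted p = 0.0546), Itgb6 by 0.15, Itgb1 by -0.03 and Itga3 by -0.09. Of 61 other adhesion genes tested in kidney, Nid1, a basement membrane linker, was higher (0.88 ± 0.21, adjusted p = 0.0333) and Zyx, a focal adhesion protein, lower (-0.58 ± 0.14, adjusted p = 0.0286). A fit of both organs together called Lama5 (adjusted p = 0.0261) in kidney and no longer Itga6 (adjusted p = 0.1343).

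In liver, none of the 38 members tested by limma was called, against 3.12% of all genes. An unadjusted p under 0.05 was reached by 6 members. The share of all genes at that looser rule was not taken, so the 3.12% is no base for it. Cldn14, Cldn3 and Itgb5 had every monuron liver below every control, an order that 9.93% of all genes tested showed. Cldn14 read 6.48, 6.87, 6.89 and 6.66 in monuron livers and 8.0, 7.60, 7.07 and 7.54 in controls. The difference was -0.83 ± 0.20 (adjusted p = 0.0613). Cldn3 read 10.45, 10.76, 10.42 and 10.58 against 10.81, 10.92, 11.01 and 11.34, at -0.47 ± 0.13 (adjusted p = 0.0749). Itgb5 read 8.51, 8.78, 8.48 and 8.55 against 9.25, 8.93, 8.82 and 9.01, at -0.42 ± 0.12 (adjusted p = 0.0858). A fit of both organs together called Itgb5 (adjusted p = 0.0438) and Cldn14 (adjusted p = 0.0058).

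The hepatocyte keratin pair overlapped between the liver groups: Krt8 read 11.60 to 12.09 with monuron and 11.71 to 11.95 in controls, and Krt18 13.13 to 13.44 and 13.16 to 13.47. Their differences were 0.03 ± 0.12 and -0.00 ± 0.09 (limma, adjusted p = 0.9020 and 0.9960). Cdh1 (-0.25), Cdh2 (0.08) and Cdh17 (0.23), the liver-intestine cadherin, were not called, and neither were Cldn1 (0.29), Cldn2 (0.08), Itgb1 (0.11) or Lamb1 (-0.15). The summed leukocyte markers read 51.57 to 55.41 in monuron livers and 48.81 to 51.48 in controls without overlap, and the hepatocyte markers 116.46 to 117.68 and 115.79 to 117.96. Their part in the liver values was not tested. Of 56 other adhesion genes, Nectin3 (0.59), Zeb2 (0.72) and Vim (0.57) were called higher.

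**Figure D5:**
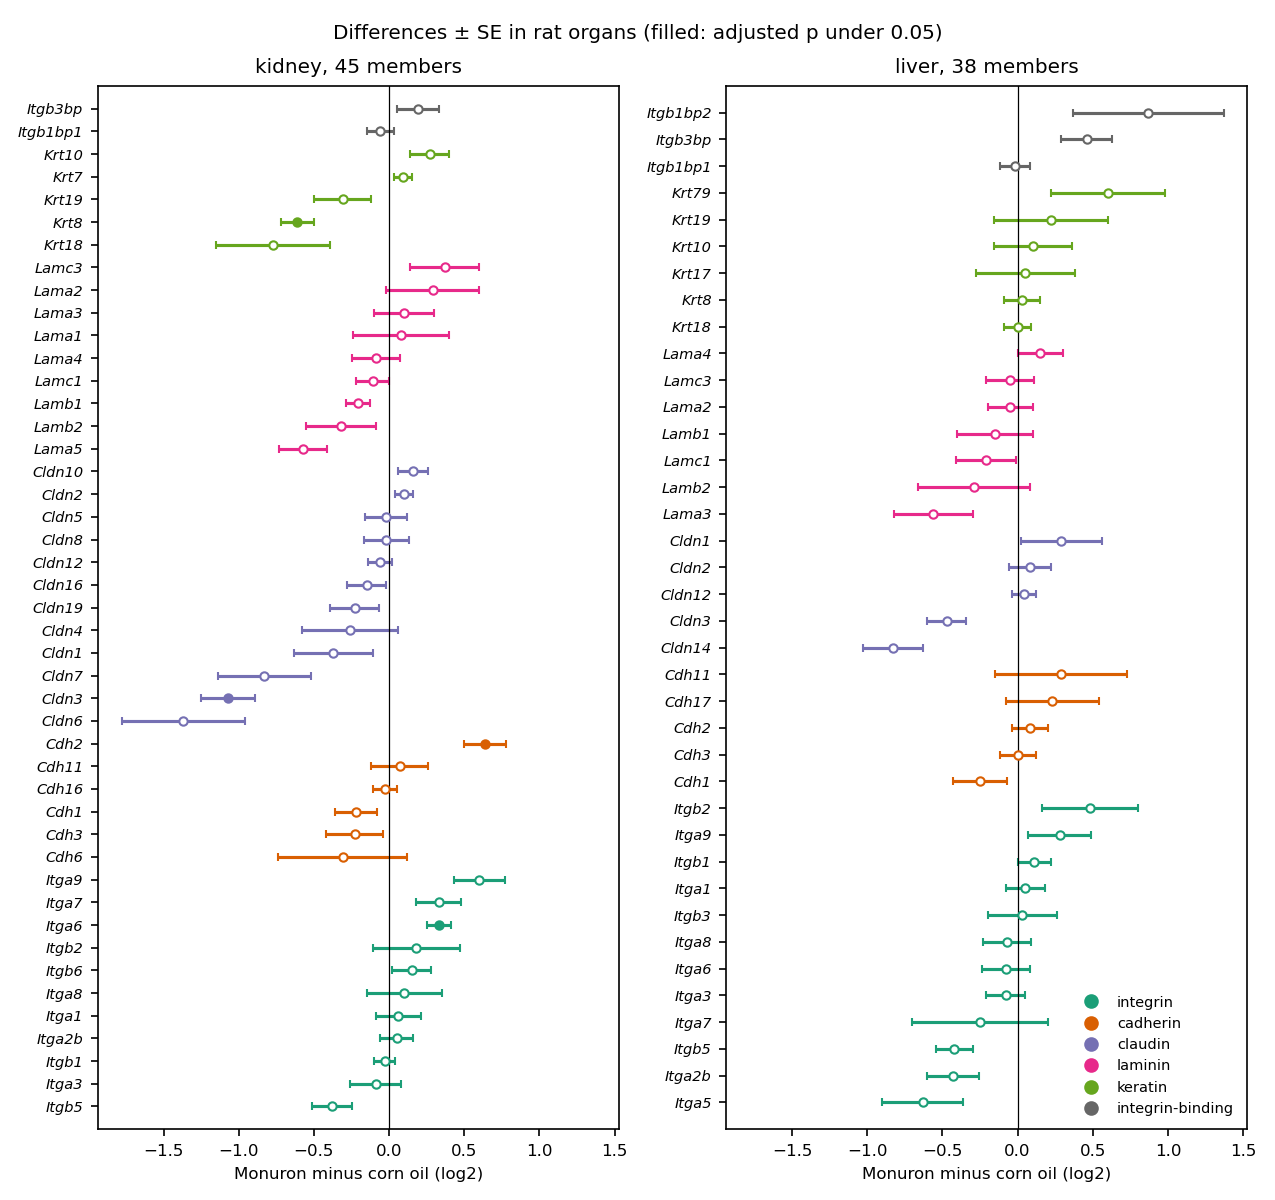
Points give the monuron minus corn oil difference (log2) with 1 SE for the 45 members tested in kidney and the 38 tested in liver, ordered within family; filled points had an adjusted p under 0.05. The 4 filled points are Krt8, Cldn3, Cdh2 and Itga6 in kidney.

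Whether the organs differed in response was tested over the 52 members in a fit of both. None was called by limma, against 2.68% of all genes. An unadjusted p under 0.05 was reached by 10 members, a rule for which the share of all genes was not taken. Krt8 came closest, with a difference in liver minus that in kidney of 0.65 ± 0.17 (adjusted p = 0.0578), followed by Cldn14 at -0.86 ± 0.23 (adjusted p = 0.0611). A call in kidney without one in liver therefore does not show that the organs differ.

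The members called in kidney are set beside their values in cells at 72 h. Krt8 was lower in both (-0.61 in kidney and -1.11 in cells), while Itga6 was 0.33 in kidney and -1.04 in cells. Cdh2 was 0.64 in kidney, and in cells -0.92 with the same probe set and -0.33 with the brighter one, and Cldn3 was not tested in cells. The cell and organ arrays were fitted apart, the time and dose differ, and no test across them was made.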

How the data were processed

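RNA levels were measured on 34 one-colour Affymetrix rat arrays. Per the submitters' processing notes the authors normalized the arrays with GCRMA; the deposited values are log2 intensities, used as deposited, and for other steps the sources used here name nothing. Of 31099 probe sets, 57 controls were left out, 20826 carried 1 gene symbol, 436 several and 9780 none; symbols come from GEO's platform annotation. Where a gene had several probe sets, the brightest on average in the fitted arrays was used. Differences were fitted with limma 3.58.1 in R 4.3.3 (lmFit, eBayes with a trend), cells over all 18 arrays, each organ over its 8, and both organs together for the interaction, with adjusted p over all genes tested and a threshold of 0.05. The fit was tested on simulated data. P-values measure the spread between these arrays; their number limits the precision.

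The members, lists and tests were chosen with earlier results of these data known. Named genes are up to 4 called members per family and comparison with the smallest adjusted p, a panel of well-known epithelial adhesion genes, and up to 3 per other adhesion list; genes mentioned beyond these were chosen after their values were seen. Replicate numbers paired arrays at 6 h (correlations 0.491, 0.197 and 0.290) and 72 h (0.205, 0.167 and 0.317), every one over 0.1, not elsewhere. Alternatives were no filter, centring on array medians, floored values, mean over probe sets, no trend, the block, only the arrays compared, and each array left out.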

Additional observations from a re-analysis of the deposited data

Results flagged for a closer look

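In 5 of 72 group readings of 4 arrays, 1 array stood apart by Dixon's test, where chance gives about 1 in 20. Monuron kidney 4 read 11.61 for Cldn2 (nearest other 11.48), and monuron kidney 2 read 9.04 for Lamb2 (8.41). Control kidney 2 read 10.25 for Lamb1 (10.52). Monuron liver 2 read 10.88 for Cldn2 (10.65) and control liver 4 read 13.47 for Krt18 (13.19). None of these genes was called in the organ concerned; without control kidney 2, Lamb1 was called in kidney (-0.27, limma, adjusted p = 0.0461).

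By the interaction test of limma, the monuron minus DMSO difference changed for 1 member from 6 to 24 h and for 9 from 24 to 72 h. Of all genes tested, 1.22% and 37.9% changed over these steps. From 24 to 72 h the share of members was 42.9%, near that of all genes, so the count does not set them apart. From 6 to 24 h this was Cldn11 (-1.30, adjusted p = 0.0368), a gene near its array medians. From 24 to 72 h the changes were Itga6 (-1.15, adjusted p = 9.91e-06), Krt8 (-0.83, 2.33e-04), Lama3 (2.44, 7.09e-04), Lamb1 (-0.62, 0.0016) and Itgb5 (-0.92, 0.0048). They were also Itga1 (-1.23, 0.0066), Cdh3 (-0.50, 0.0067), Itgb3bp (-0.93, 0.0186) and Itga3 (-0.37, 0.0470).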

How the results depend on the processing

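Counts of called members moved by over 1.5 times under these settings, and the cause was not tested except where fewer arrays or more genes entered. Most counts stand here without the share of all genes called under the same setting, so they do not set the members apart. At 6 h (4 called) centring gave 1, the mean over probe sets 2 and the 6 h arrays alone 8. At 24 h (1 called) no filter gave 2, without Itgb1, floored values 2, centring and the mean over probe sets 0, the replicate block 5 and the 24 h arrays alone 7. At 72 h (12 of 21 tested called, against 61.6% of all genes) no filter gave 19 of 84 (44.8%). For the change from 6 to 24 h (1 called), no filter gave 2, centring, floored values and the mean over probe sets 0, and the 4 groups' arrays alone 6. For DMSO cells from 24 to 72 h (9 called) the compared arrays alone gave 3, and for monuron cells (13 of 21 called, against 60.7%) no filter gave 20 of 84 (40.7%). In kidney (4 called) the block gave 2, with Itga6 at an adjusted p of 0.0616 and Cdh2 at 0.0567; in liver (0 called) both organs together gave 2. For the organ interaction (0 called) the mean over probe sets and no trend gave 1 each. Itgb1bp1 from 6 to 24 h in DMSO cells reversed to 0.28 with the mean over probe sets.

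With each array left out in turn the counts ran from 1 to 7 at 6 h, 0 to 5 at 24 h, 10 to 16 at 72 h, 0 to 2 and 7 to 11 for the changes of the treatment difference (6 to 24 h and 24 to 72 h), 11 to 16 and 7 to 13 for DMSO cells, 10 to 14 and 12 to 13 for monuron cells, 2 to 5 in kidney, 0 to 1 in liver and 0 to 2 for the organ interaction. Without DMSO array 3 of 72 h the counts were 7, 5 and 16 at 6, 24 and 72 h. The shares of all genes called with an array left out are not given here. These counts therefore do not show whether the members moved apart from other genes. Over 80 results for single members, 587 of 635 alternative values kept direction and call, 47 lost the call and 1 reversed; of 1400 with an array left out, 1264 kept it and 136 lost it. Same-numbered arrays did not deviate together at 24 h (-0.116, -0.116 and 0.128) or in the organs, where the number is only a name. Signal near the array median limits Cldn11, Itga9, Cldn6 and Krt10.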
